A study of Homo sapiens with 12 samples.

Results

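The genes described here carry glucose into the cell and on to pyruvate, lactate and the mitochondrial entry step. They comprise the glucose transporters SLC2A1 and SLC2A3, the glycolytic enzymes with their isoforms, the PFKFB enzymes that set the activator of phosphofructokinase, lactate dehydrogenase and a monocarboxylate carrier, and pyruvate dehydrogenase with its kinases. Members were chosen by name, as every probe set that names 1 of 33 listed genes and no other gene, and the probe sets of a gene were averaged. Of the 33 genes, 31 were measured, by 76 probe sets, among 19775 genes in all, and SLC16A1 and SLC16A3 were not analysed here. Only 1 probe set was at hand for each of 9 genes, HK1, PGM1, GPI, PFKM, PFKFB3, ALDOC, PGAM1, ENO2 and LDHA. Their changes could not be compared with those of another probe set. RNA of Imr90 cells, a line of human lung fibroblasts, was hybridised to 12 Affymetrix arrays, 3 in each of 4 groups. The groups were old nonsenescent cells at population doubling 53 in 3% oxygen, senescent cells at population doubling 48 in 20% oxygen, young cells at population doubling 30 in 3% oxygen, and young cells at population doubling 30 in 20% oxygen. All cells came from a supplier, grew in the same serum-containing medium and were taken before full confluency, with a separate incubator for each oxygen level, so that oxygen and incubator cannot be told apart. The labels call the samples biological replicates without naming separate cultures, so the p-values measure the spread between these samples, which may be technical.

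Glycolysis splits glucose into pyruvate, and lactate dehydrogenase regenerates the cofactor that lets the pathway run without respiration. Most steps are served by several isoforms that differ in tissue and in regulation, and the pyruvate dehydrogenase kinases switch off the enzyme that sends pyruvate into mitochondria. In low oxygen the hypoxia-inducible factors raise many of these genes, through sites in DNA that read ACGTG or GCGTG, and fibroblasts in culture are known for a high rate of glycolysis.

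Values below are log2 values relative to the median of the same probe set over the 12 arrays, averaged over the probe sets of a gene. They show differences of a gene between arrays, and no level of a gene can be set against that of another. RNA of whole cultures was measured, so fewer cells with a transcript and less of it per cell cannot be told apart. Of 8 fibroblast markers, 5 fell in senescent cells and 4 fell in young cells at 3%, each against young cells at 20% oxygen. Of all genes, 7.84% and 6.84% were lower in these comparisons. The mean of these 8 markers ran from -0.11 to -0.02 in old cells, from -0.16 to -0.11 in senescent cells, from -0.14 to -0.07 in young cells at 3% and from 0.37 to 0.45 in young cells at 20% oxygen, and its part in the results was not tested. Of 16 measured markers of epithelial, endothelial, immune and smooth muscle cells, 1 was lower in the first of these comparisons and 2 in the second. The shares of all genes beside these counts were again 7.84% and 6.84%. Because the values are centred, the presence or absence of any marker cannot be read from them. On the arrays' ACTB control, a measure of RNA integrity, the signal at the 3′ end minus that at the 5′ end was largest on young 3% replicate 2, at 0.71, and lay between -0.22 and 0.35 on the other arrays.

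Young cells at 20% oxygen stood below all the other groups in many genes of the pathway. Over the 31 genes, the mean value was 0.04 ± 0.07 in old cells at 3%, 0.08 ± 0.0023 in senescent cells at 20%, 0.05 ± 0.03 in young cells at 3% and -0.41 ± 0.02 in young cells at 20% oxygen (SD, n = 3 each). For 15 genes all 3 arrays of young cells at 20% oxygen lay below the other 9 arrays, which held for 3.69% of all genes. These 15 were SLC2A1, SLC2A3, PGM1, GPI, PFKFB4, ALDOA, TPI1, GAPDH, PGK1, PGAM1, ENO1, ENO2, LDHA, PDK1 and PDK3, and they cover every stage from uptake to the kinases. HK2 was the single gene with the opposite order, above the other 9 arrays in young cells at 20% oxygen, as were 6.37% of all genes. Senescent cells lay above the other 9 arrays in 6 genes, PFKFB4, ALDOA, ALDOC, GAPDH, PGK1 and ENO2 (4.19% of all genes), and below them in LDHB and SLC16A7 (4.15% of all genes).

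**Figure D1:**
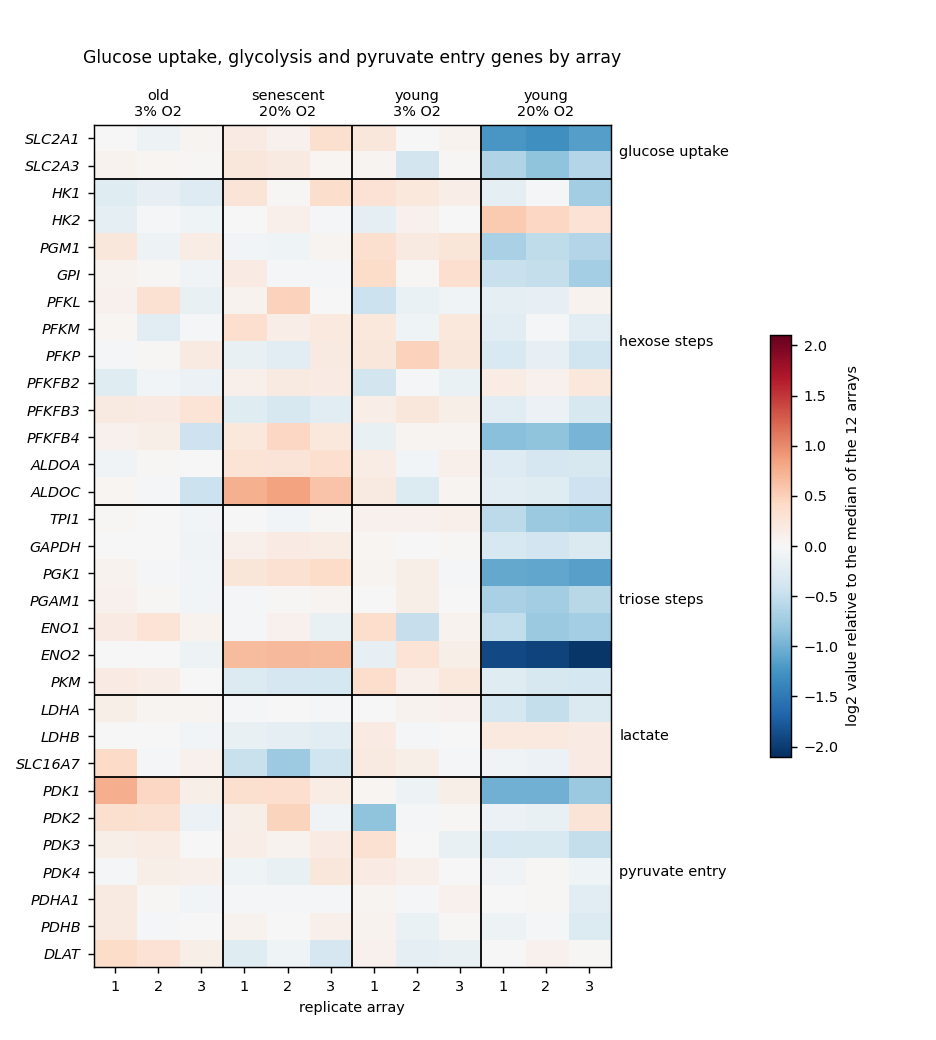
Value of each of the 31 genes (rows, in pathway order) on each of the 12 arrays (columns, by group), as log2 relative to the gene's probe set medians over all arrays, on a colour scale centred on 0. The 3 columns of young cells at 20% oxygen hold the low values of 15 genes, with ENO2 lowest at -2.04, and HK2 shows the reverse.

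The tests followed the same order. A gene is called where limma's two-sided test, adjusted by Benjamini-Hochberg over all 19775 genes, gives an adjusted p under 0.05. In senescent against young cells at 20% oxygen, 18 of 31 genes were higher and 3 were lower, where 4.67% of all genes were higher and 7.84% were lower. The median change of the 31 genes was 0.49, against 0.04 over all genes. In young cells at 3% against young cells at 20% oxygen, 19 genes were higher and 2 were lower, where 4.96% and 6.84% of all genes were higher and lower. The median change of the 31 genes was 0.44 here, against -0.03 over all genes. Both comparisons use the same 3 arrays of young cells at 20% oxygen, so their changes are given side by side and not as support for each other. By stage, the counts of higher and lower genes in senescent against young cells at 20% were 2 and 0 of 2 transporters, 7 and 1 of 12 genes from hexokinase to aldolase, 6 and 0 of 7 from triose phosphate isomerase to pyruvate kinase, 1 and 2 of 3 for lactate, and 2 and 0 of 7 for pyruvate entry. In young cells at 3% against 20% oxygen they were 2 and 0, 7 and 2, 7 and 0, 1 and 0, and 2 and 0.

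**Figure D2:**
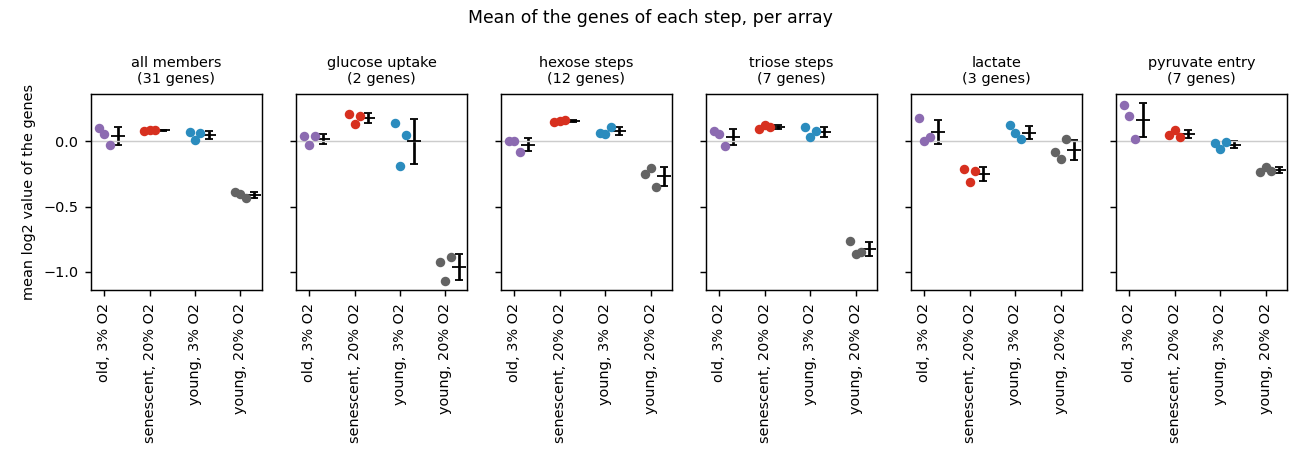
Mean value of the genes of each stage on every array (points), with mean ± SD beside them, in log2 relative to the median over 12 arrays, for 4 groups of 3 arrays and all 31 genes together at the left. From triose phosphate isomerase to pyruvate kinase the young cells at 20% oxygen average -0.83 and the other 3 groups lie between 0.03 and 0.11, while the lactate genes are lowest in senescent cells at -0.25.

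The promoters of 6 genes are shown because they stand for the changes described below: ENO2 and PGK1 are among the genes with the largest rises, ALDOC, PFKFB4 and LDHA are isoforms described beside their relatives, and HK2 fell in both comparisons with young cells at 20% oxygen. Sequences are from RefSeq on build GRCh38.p14, read 5′ to 3′ on the strand of the gene and ending before or at the base ahead of the start of transcription. Capitals mark ACGTG or GCGTG on either strand, so that CACGT and CACGC are the same motifs read from the other strand, and matches that overlap form 1 run of capitals.
ENO2: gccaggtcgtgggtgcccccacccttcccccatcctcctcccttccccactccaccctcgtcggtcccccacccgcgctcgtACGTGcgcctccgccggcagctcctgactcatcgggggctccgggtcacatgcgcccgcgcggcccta
PGK1: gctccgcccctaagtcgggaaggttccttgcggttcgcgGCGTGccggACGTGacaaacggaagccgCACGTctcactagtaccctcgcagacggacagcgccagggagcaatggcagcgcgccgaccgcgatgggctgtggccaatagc
ALDOC: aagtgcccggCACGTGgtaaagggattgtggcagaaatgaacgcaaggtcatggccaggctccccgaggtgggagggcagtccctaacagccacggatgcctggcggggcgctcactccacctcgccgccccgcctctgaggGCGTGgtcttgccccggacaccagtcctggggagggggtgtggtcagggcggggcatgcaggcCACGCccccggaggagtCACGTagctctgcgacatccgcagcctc
LDHA: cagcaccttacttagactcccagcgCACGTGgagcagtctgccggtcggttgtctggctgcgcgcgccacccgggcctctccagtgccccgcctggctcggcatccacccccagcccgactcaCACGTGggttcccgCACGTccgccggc
PFKFB4: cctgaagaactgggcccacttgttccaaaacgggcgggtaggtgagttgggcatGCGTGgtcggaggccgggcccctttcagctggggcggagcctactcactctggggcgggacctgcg
HK2: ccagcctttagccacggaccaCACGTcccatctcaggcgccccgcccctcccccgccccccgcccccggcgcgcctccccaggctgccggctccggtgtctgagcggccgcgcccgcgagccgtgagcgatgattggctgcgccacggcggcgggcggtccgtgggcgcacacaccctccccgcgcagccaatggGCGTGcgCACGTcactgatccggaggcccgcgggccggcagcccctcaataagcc
ENO2 lies at chr12:6914380-6914529 (plus strand), PGK1 at chrX:78103998-78104147 (plus strand), ALDOC at chr17:28576896-28577145 (minus strand), LDHA at chr11:18394353-18394502 (plus strand), PFKFB4 at chr3:48556904-48557023 (minus strand) and HK2 at chr2:74833877-74834126 (plus strand). On either strand ACGTG occurs 1 time in the ENO2 stretch, 2 times in PGK1, 3 times in ALDOC, 5 times in LDHA, 0 times in PFKFB4 and 2 times in HK2. GCGTG occurs 1 time each in PGK1, PFKFB4 and HK2, 2 times in ALDOC, and 0 times in ENO2 and LDHA. A CACGTG run holds the motif on both strands and counts 2 times. HK2 and LDHA each have another window, at a different start, that is not printed. It holds ACGTG 4 times and GCGTG 2 times for HK2, and ACGTG 0 times and GCGTG 1 time for LDHA. Among the 29 measured genes with an entry, in 56 windows of 250 bases before to 50 bases after a start, ACGTG was present in 39.3% of windows, against 21.4% of all 35116 promoter windows. For GCGTG the shares were 41.1% and 36.5%. Of the 18 genes called higher in senescent cells against young cells at 20%, 17 had a window and 12 of these held ACGTG, against 5 of 9 among the genes not called and 1 of 3 among those lower. For GCGTG these counts were 10 of 17, 8 of 9 and 2 of 3. Counted by gene, ACGTG was in some window of 62.1% of the 29 genes and of 24.9% of all genes with a window. For GCGTG these shares were 69.0% and 40.6%. A gene with several windows has more chances of a match. ACGTG is in HK2, whose mean over its probe sets fell, as well as in genes that rose. The probe sets of HK2 disagreed, as described below. A match describes the letters of the window and not a bound site. SLC2A3 and PFKFB2 had no entry.

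Both glucose transporters were higher in senescent cells and in young cells at 3% oxygen than in young cells at 20%. SLC2A1 encodes the widely expressed transporter GLUT1. Its values were 0.0014, -0.10 and 0.06 in old cells, 0.17, 0.08 and 0.33 in senescent cells, 0.23, -0.0026 and 0.07 in young cells at 3%, and -1.22, -1.29 and -1.16 in young cells at 20% oxygen. No array of the other groups came within 1 log2 unit of the young cells at 20% oxygen. The change was 1.42 ± 0.10 (SE) in senescent against young cells at 20% oxygen, 2.67-fold, with an adjusted p of 1.42e-06. For young cells at 3% against 20% oxygen the change was 1.32 ± 0.10, 2.5-fold, with an adjusted p of 1.66e-06. SLC2A3 encodes GLUT3, a transporter of high affinity for glucose. It had 0.08, 0.04 and 0.02 in old cells, 0.24, 0.18 and 0.05 in senescent cells, 0.05, -0.38 and 0.02 in young cells at 3%, and -0.63, -0.85 and -0.61 in young cells at 20% oxygen. The groups do not overlap with young cells at 20% oxygen, although young 3% replicate 2 lay nearest to them. The changes were 0.85 ± 0.12 (adjusted p 0.000465) in senescent and 0.60 ± 0.12 (adjusted p 0.00556) in young 3% against young 20% cells. The SLC2A3 probe sets may also read SLC2A14, a close relative.

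The first steps of glycolysis, from hexokinase to aldolase, held both the rising genes PGM1, GPI, PFKFB4, ALDOA and HK1 and the falling gene HK2. Hexokinase traps glucose as its phosphate, with HK1 the common form and HK2 a form usually described as inducible. HK1 had -0.25, -0.17 and -0.27 in old cells, 0.27, 0.02 and 0.37 in senescent cells, 0.30, 0.22 and 0.13 in young cells at 3%, and -0.21, -0.02 and -0.74 in young cells at 20% oxygen. Old cells and young cells at 20% oxygen overlapped, and both lay below the other 2 groups. Against young cells at 20% oxygen the change was 0.55 ± 0.16 in senescent cells (adjusted p 0.0377) and 0.54 ± 0.16 in young cells at 3% (adjusted p 0.0415). The first call was lost without any of 4 of the 6 arrays, young 20% replicates 1 and 3 and senescent replicates 1 and 3 (adjusted p 0.0657 to 0.14). The second was lost without any of 5, young 20% replicates 1 and 3 and each of the young 3% replicates (adjusted p 0.0654 to 0.138).

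HK2 had -0.19, -0.03 and -0.10 in old cells, -0.01, 0.11 and -0.02 in senescent cells, -0.18, 0.09 and 0.00041 in young cells at 3%, and 0.55, 0.44 and 0.30 in young cells at 20% oxygen. Young cells at 20% oxygen were thus the highest group. The change was -0.41 ± 0.10 in senescent cells (adjusted p 0.0178) and -0.46 ± 0.10 in young cells at 3% (adjusted p 0.00872), both against young cells at 20% oxygen. Its 3 probe sets disagreed. The probe set 202934_at was not called, with 0.10 in senescent and -0.09 in young 3% against young 20% cells, while 222305_at was called with -0.85 and -0.64. The third probe set, 239410_at, had -0.48, which was not called, and -0.66, which was. The senescent call for the gene was lost without young 20% replicate 1 or 2 or senescent replicate 1 or 3 (adjusted p 0.0602 to 0.0948), and the other without young 20% replicate 1 (adjusted p 0.0531).

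PGM1, which interconverts the glucose phosphates of glycolysis and of glycogen metabolism, was lowest in young cells at 20% oxygen. Its values were 0.24, -0.11 and 0.15 in old cells, -0.05, -0.09 and 0.05 in senescent cells, 0.34, 0.20 and 0.26 in young cells at 3%, and -0.69, -0.54 and -0.62 in young cells at 20% oxygen. The highest group was young cells at 3%, and its arrays did not overlap with the senescent ones. The changes against young cells at 20% oxygen were 0.59 ± 0.10 in senescent (adjusted p 0.00221) and 0.88 ± 0.10 in young 3% cells (adjusted p 8.68e-05). GPI, the isomerase that makes fructose phosphate, had changes of 0.59 ± 0.11 and 0.81 ± 0.11 in the same comparisons.

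Phosphofructokinase commits sugar to glycolysis, and of its 3 genes 1 was called in each comparison with young cells at 20% oxygen. PFKP, the platelet form, was higher in young cells at 3% against 20% oxygen by 0.62 ± 0.12 (adjusted p 0.00507), whereas in senescent against young cells at 20% oxygen its change of 0.24 was not called (95% interval -0.03 to 0.51). PFKM, the muscle form, was higher in senescent cells by 0.41 ± 0.12 (adjusted p 0.035) and its 0.29 in young cells at 3% was not called (adjusted p 0.148). The PFKM call in senescent cells was lost without any of 5 arrays, each senescent replicate and young 20% replicates 1 and 3 (adjusted p 0.0508 to 0.142). PFKL, the liver form, had 0.29 and -0.12, and neither was called (95% intervals -0.06 to 0.63 and -0.47 to 0.22).

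The PFKFB enzymes make and remove the sugar phosphate that activates phosphofructokinase, and 3 of their genes are on the list. PFKFB4 had 0.09, 0.12 and -0.44 in old cells, 0.23, 0.44 and 0.22 in senescent cells, -0.15, 0.05 and 0.06 in young cells at 3%, and -0.87, -0.85 and -0.97 in young cells at 20% oxygen. Every array of the other groups was above the young cells at 20% oxygen, with old replicate 3 the nearest. The change was 1.19 ± 0.14 in senescent cells (adjusted p 0.000105) and 0.89 ± 0.14 in young cells at 3% (adjusted p 0.00094). It rests on the probe set 228499_at, with 2.34 and 1.82, since 206246_at had 0.05 and -0.04 and was not called.

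PFKFB3, a form with high kinase activity, had 0.19, 0.17 and 0.29 in old cells, -0.26, -0.34 and -0.24 in senescent cells, 0.15, 0.23 and 0.12 in young cells at 3%, and -0.23, -0.12 and -0.34 in young cells at 20% oxygen. Both groups in 3% oxygen were high and both in 20% oxygen were low. The change was 0.40 ± 0.09 in young cells at 3% against 20% oxygen (adjusted p 0.00915), and -0.05 in senescent against young cells at 20% was not called (95% interval -0.24 to 0.14). PFKFB2, a form best known from heart, had -0.25, -0.05 and -0.13 in old cells, 0.11, 0.18 and 0.18 in senescent cells, -0.39, -0.04 and -0.14 in young cells at 3%, and 0.16, 0.10 and 0.22 in young cells at 20% oxygen. Here the order was turned, with the groups in 3% oxygen low. The change in young cells at 3% against 20% oxygen was -0.35 ± 0.10 (adjusted p 0.0443). It came from the probe set 226733_at (-1.07) and was lost without any of 5 arrays, young 3% replicates 1 and 3 and each young 20% replicate (adjusted p 0.0727 to 0.166).

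Aldolase splits fructose bisphosphate into triose phosphates, and its brain form ALDOC set senescent cells apart. ALDOC had 0.04, -0.04 and -0.45 in old cells, 0.74, 0.85 and 0.60 in senescent cells, 0.19, -0.29 and 0.05 in young cells at 3%, and -0.22, -0.25 and -0.43 in young cells at 20% oxygen. The senescent arrays were above all others, and the remaining 3 groups overlapped. The change in senescent against young cells at 20% oxygen was 1.03 ± 0.15, 2.04-fold (adjusted p 0.00055), and that in young cells at 3% was 0.28, not called (95% interval -0.04 to 0.61). In senescent cells against young cells at 3% oxygen ALDOC was higher by 0.75 ± 0.15 (adjusted p 0.00542). ALDOA, the common form, had -0.07, 0.03 and -0.01 in old cells, 0.28, 0.28 and 0.36 in senescent cells, 0.15, -0.05 and 0.10 in young cells at 3%, and -0.28, -0.36 and -0.33 in young cells at 20% oxygen. It formed 3 tiers, with the senescent arrays highest and the young 20% arrays lowest. Against young cells at 20% oxygen it was higher by 0.63 ± 0.08 in senescent cells (adjusted p 0.000324) and by 0.39 ± 0.08 in young cells at 3% (adjusted p 0.00853).

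**Figure D3:**
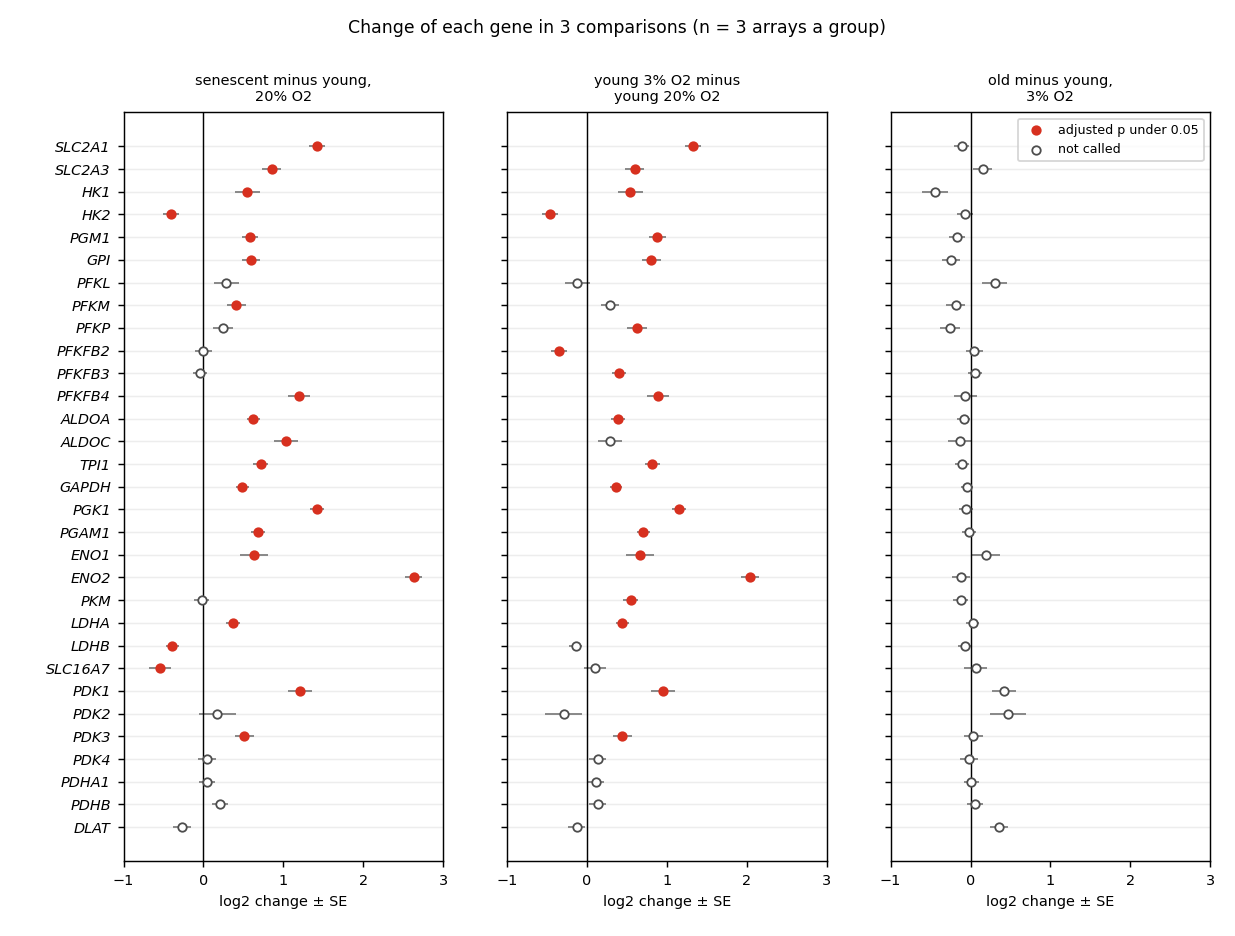
Change of each of the 31 genes (points, log2, with SE bars) in senescent against young cells at 20% oxygen, in young cells at 3% against young cells at 20% oxygen, and in old against young cells at 3% oxygen, with called changes marked. ENO2 reaches 2.63 in the first and 2.04 in the second panel, and no gene is called in the third.

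From triose phosphate isomerase to pyruvate kinase nearly every gene rose in both comparisons, and ENO2 rose most of all 31 genes. ENO2 encodes the neuronal form of enolase. It had 0.01, -0.01 and -0.11 in old cells, 0.67, 0.67 and 0.66 in senescent cells, -0.18, 0.29 and 0.13 in young cells at 3%, and -1.90, -1.94 and -2.04 in young cells at 20% oxygen. The 3 senescent arrays were above, and the 3 young 20% arrays far below, all the others. The change was 2.63 ± 0.11 in senescent against young cells at 20% oxygen, 6.19-fold (adjusted p 1.81e-08). Young cells at 3% had a change of 2.04 ± 0.11, 4.12-fold (adjusted p 1.37e-07). Senescent cells were also 0.59 ± 0.11 higher than young cells at 3% (adjusted p 0.00384).

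PGK1, which makes the first ATP of the pathway, was called in both comparisons by each of its 6 probe sets. Its values were 0.08, -0.05 and -0.06 in old cells, 0.25, 0.32 and 0.38 in senescent cells, 0.06, 0.12 and -0.03 in young cells at 3%, and -1.08, -1.08 and -1.14 in young cells at 20% oxygen. As for ALDOA, the senescent arrays were highest and the young 20% arrays lowest without overlap. The changes were 1.42 ± 0.08, 2.68-fold (adjusted p 3.93e-07), in senescent and 1.15 ± 0.08, 2.22-fold (adjusted p 1.41e-06), in young 3% against young 20% cells.

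TPI1, which interconverts the triose phosphates, had 0.03, -0.01 and -0.05 in old cells, 0.01, -0.05 and 0.03 in senescent cells, 0.10, 0.09 and 0.11 in young cells at 3%, and -0.55, -0.79 and -0.82 in young cells at 20% oxygen. Its changes were 0.71 ± 0.09 in senescent and 0.82 ± 0.09 in young 3% against young 20% cells (adjusted p 0.000168 and 4.4e-05). PGAM1, the phosphoglycerate mutase, had 0.09, 0.03 and -0.05 in old cells, -0.04, 0.02 and 0.06 in senescent cells, -0.01, 0.12 and 0.01 in young cells at 3%, and -0.69, -0.73 and -0.57 in young cells at 20% oxygen. For both genes young cells at 20% oxygen lay far below the other groups, which overlapped for PGAM1, while for TPI1 the young cells at 3% lay slightly above old and senescent cells. The changes of PGAM1 were 0.68 ± 0.09 and 0.71 ± 0.09 (adjusted p 0.000182 and 0.000111). GAPDH, often used to normalise other measurements, was higher by 0.49 ± 0.08 in senescent cells (adjusted p 0.00102) and by 0.36 ± 0.08 in young cells at 3% (adjusted p 0.00702). The control probe sets for the 3′ end of GAPDH, which are separate from those averaged, gave -0.01 ± 0.04, 0.13 ± 0.06, 0.01 ± 0.02 and -0.30 ± 0.03 (SD, n = 3 each) in old, senescent, young 3% and young 20% cells. Those for the 3′ end of ACTB stayed between -0.03 and 0.02 in the group means.

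ENO1, the common enolase, had 0.16, 0.29 and 0.07 in old cells, -0.05, 0.09 and -0.16 in senescent cells, 0.38, -0.49 and 0.07 in young cells at 3%, and -0.52, -0.79 and -0.71 in young cells at 20% oxygen. The low value of young 3% replicate 2 lay on the array with the largest 3′ to 5′ difference of ACTB. The changes were 0.63 ± 0.18 in senescent (adjusted p 0.0323) and 0.66 ± 0.18 in young 3% against young 20% cells (adjusted p 0.0277). Its 4 probe sets ran from 0.10 to 0.89 in senescent and from -0.06 to 1.09 in young 3% cells, with 2 of 4 called in each, and neither gene call held with the most variable probe set alone (adjusted p 0.302 and 0.332). With the 3′ to 5′ difference of ACTB as a covariate, an alternative chosen after seeing the data, they were 0.73 and 0.74 (adjusted p 0.00143 and 0.00118). The senescent call was lost without any of the 6 arrays (adjusted p 0.0516 to 0.122), and the other without young 20% replicate 2 or 3 or young 3% replicate 1 or 3 (adjusted p 0.0821 to 0.103). GAPDH, PGK1, ENO1, TPI1, PGAM1 and LDHA have pseudogenes or close relatives that their probe sets may also read.

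Pyruvate kinase closes glycolysis, and the 2 probe sets of PKM, a gene with several splice forms, went opposite ways in senescent cells. On average PKM had 0.17, 0.15 and -0.01 in old cells, -0.29, -0.36 and -0.37 in senescent cells, 0.37, 0.10 and 0.22 in young cells at 3%, and -0.26, -0.33 and -0.36 in young cells at 20% oxygen. The 2 groups in 20% oxygen overlapped and were low, with -0.02 between them, not called (95% interval -0.22 to 0.18), and young cells at 3% were 0.55 ± 0.09 above young cells at 20% (adjusted p 0.00164). The probe set 201251_at was higher in senescent against young cells at 20% by 0.58 ± 0.09 (adjusted p 0.00146), and 213700_s_at was lower there, with -0.62 ± 0.14 (adjusted p 0.0102). Both probe sets were higher in young cells at 3% against young cells at 20% oxygen, by 0.81 (called) and 0.29 (not called). No file used here says which transcript each of these probe sets reads.

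**Figure D4:**
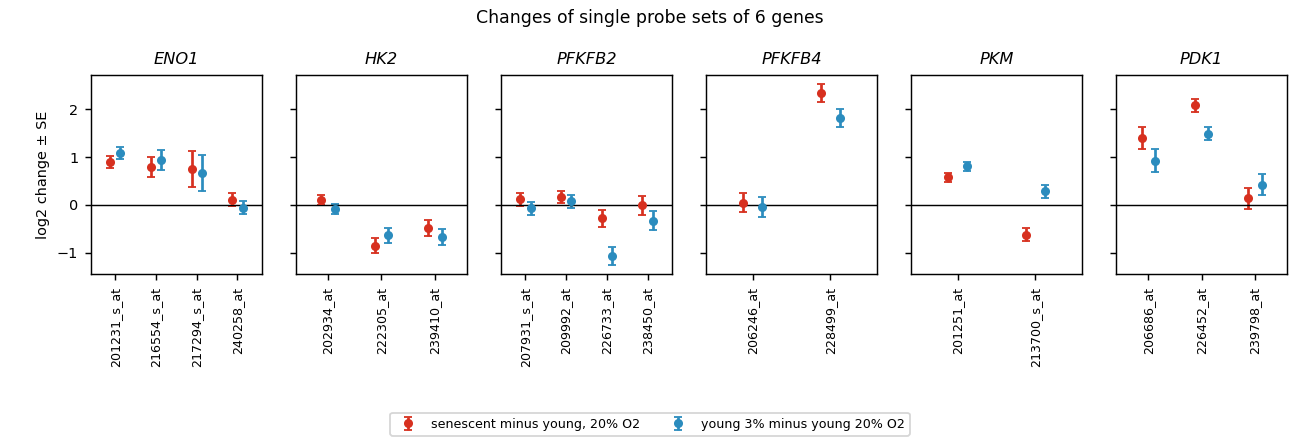
Change (log2, with SE bars) of the single probe sets of 6 genes in senescent against young cells at 20% oxygen and in young cells at 3% against young cells at 20% oxygen. For PKM the 2 probe sets stand at 0.58 and -0.62 in senescent cells, and for PFKFB4 at 2.34 and 0.05.

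The genes of lactate production and transport moved in opposite directions in senescent cells. LDHA, the subunit that favours lactate formation, had 0.12, 0.06 and 0.06 in old cells, -0.02, 0.01 and -0.05 in senescent cells, -0.01, 0.08 and 0.09 in young cells at 3%, and -0.37, -0.50 and -0.30 in young cells at 20% oxygen. Young cells at 20% oxygen were the lowest, and the change was 0.37 ± 0.08 in senescent (adjusted p 0.00966) and 0.44 ± 0.08 in young 3% cells (adjusted p 0.00309). The first was lost without young 20% replicate 2 (0.32, adjusted p 0.0531). LDHB, the subunit more often tied to lactate use, had 0.01, -0.0044 and -0.06 in old cells, -0.16, -0.20 and -0.22 in senescent cells, 0.18, -0.02 and 0.01 in young cells at 3%, and 0.20, 0.21 and 0.18 in young cells at 20% oxygen. Senescent cells were the lowest group, with a change of -0.39 ± 0.08 (adjusted p 0.00744) against young cells at 20% oxygen, and -0.14 in young cells at 3% was not called (95% interval -0.32 to 0.04). SLC16A7 encodes MCT2, a carrier of pyruvate and lactate. It had 0.41, -0.04 and 0.09 in old cells, -0.46, -0.76 and -0.42 in senescent cells, 0.19, 0.12 and -0.05 in young cells at 3%, and -0.08, -0.13 and 0.18 in young cells at 20% oxygen. The senescent arrays were below all the others, while the other 3 groups overlapped. The change in senescent cells was -0.54 ± 0.14 against young cells at 20% (adjusted p 0.0214) and -0.64 ± 0.14 against young cells at 3% oxygen (adjusted p 0.00898). The first of these calls was lost without young 20% replicate 1 or 3 or senescent replicate 2 (adjusted p 0.0503 to 0.0933), and neither call held with the most variable of its 5 probe sets alone (adjusted p 0.432 and 0.123).

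At pyruvate entry 2 of 4 kinases rose, and the listed subunits PDHA1, PDHB and DLAT were not called against young cells at 20% oxygen. DLD, a subunit of the complex outside the list, was called lower in senescent cells, as given under the other observations. PDK1, a kinase that switches off pyruvate dehydrogenase, had 0.77, 0.44 and 0.12 in old cells, 0.33, 0.35 and 0.15 in senescent cells, 0.03, -0.11 and 0.13 in young cells at 3%, and -1.01, -1.01 and -0.77 in young cells at 20% oxygen. All 9 other arrays lay above the young cells at 20% oxygen, and the old cells were the most spread. The change was 1.21 ± 0.15, 2.31-fold (adjusted p 0.000144), in senescent and 0.95 ± 0.15, 1.93-fold (adjusted p 0.000842), in young 3% against young 20% cells. Its probe sets 226452_at and 206686_at had 2.08 and 1.40 in senescent cells and were called, and 239798_at had 0.14 and was not.

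PDK3, another kinase of the same enzyme, had 0.13, 0.16 and -0.01 in old cells, 0.14, 0.07 and 0.17 in senescent cells, 0.32, 0.01 and -0.16 in young cells at 3%, and -0.31, -0.33 and -0.51 in young cells at 20% oxygen. Its changes were 0.51 ± 0.12 (adjusted p 0.0118) and 0.44 ± 0.12 (adjusted p 0.0283). The first was lost without young 20% replicate 3 (adjusted p 0.0552), and the second without any of 5 arrays, all but young 3% replicate 3 (adjusted p 0.0551 to 0.12). The 5 probe sets of PDK3 ran from 0.11 to 1.09 and from 0.02 to 0.90, with 2 of 5 called in each comparison. PDK2 had 0.17 and -0.29 in the same comparisons, and PDK4, the kinase best known from fasting, had 0.04 and 0.13, none of them called. PDK2 was spread within groups, with -0.85 on young 3% replicate 1 against -0.05 and 0.02 on replicates 2 and 3. The subunits PDHA1 and PDHB of the first enzyme of the complex had 0.04 and 0.21 in senescent cells, and 0.11 and 0.13 in young cells at 3%, again not called.

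DLAT, the acetyl-carrying subunit of the complex, was highest in old cells. Its values were 0.38, 0.30 and 0.12 in old cells, -0.26, -0.09 and -0.35 in senescent cells, 0.09, -0.21 and -0.16 in young cells at 3%, and -0.01, 0.08 and 0.03 in young cells at 20% oxygen. The old arrays were above the other 9, as were those of 2.28% of all genes. The change of -0.27 in senescent against young cells at 20% oxygen was not called (adjusted p 0.166), and its 3 probe sets ran from -0.64 to 0.18 there. Of these, 213149_at was called lower by limma (-0.64, adjusted p 0.00256). With array quality weights the gene itself was called lower (-0.26, adjusted p 0.00359).

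Passage at 3% oxygen moved none of these genes past the threshold. In old against young cells at 3% oxygen 0 of 31 genes were called by limma, where 0.981% of all genes were higher and 0.759% were lower, a rate at which few or none of 31 genes would be called. At an unadjusted p under 0.05, 3 of the 31 genes passed, HK1, PDK1 and DLAT. The share of all genes that pass without adjustment was not counted, so these 3 genes are not read as changes with passage. The changes ran from -0.45 (HK1) to 0.47 (PDK2), with a median of -0.04, and the smallest adjusted p was 0.168, for DLAT (0.36, 95% interval 0.12 to 0.60). Intervals of single genes reached from -0.79 for HK1 to 0.96 for PDK2. The genes that differed most at 20% oxygen had small values here, -0.12 (95% interval -0.36 to 0.12) for ENO2, -0.11 (-0.33 to 0.10) for SLC2A1 and -0.06 (-0.24 to 0.12) for PGK1. The difference between the change with passage at 20% and that at 3% oxygen was itself tested. It was called for 16 genes, higher for 15 and lower for DLAT, where 2.06% of all genes were higher and 4.37% were lower. ENO2 had 2.75 ± 0.16 (adjusted p 7.5e-07), SLC2A1 1.53 ± 0.14 (adjusted p 3.26e-05) and PGK1 1.48 ± 0.12 (adjusted p 1.24e-05). This contrast takes in the young cells at 20% oxygen, whose low values it shares with the comparisons above. Its 20% side ends in senescent cells and its 3% side in nonsenescent cells, so the sides differ in more than oxygen.

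Old cells at 3% differed from senescent cells at 20% oxygen in 8 genes, 4 higher and 4 lower, where 6.59% and 4.41% of all genes were higher and lower. The 2 groups differ in oxygen, in population doubling and in senescence at the same time. Higher in old cells were SLC16A7 by 0.70 ± 0.14 (adjusted p 0.00475), DLAT by 0.50 ± 0.11 (adjusted p 0.0101), PFKFB3 by 0.50 ± 0.09 (adjusted p 0.00214) and PKM by 0.44 ± 0.09 (adjusted p 0.00713). The DLAT call was lost without senescent replicate 3 (0.44, adjusted p 0.0508). For PKM the probe sets had 0.14 and 0.75 in old against senescent cells, and 1 of 2 was called. Lower in old cells were ALDOC with -0.88 ± 0.15 (adjusted p 0.00169), ENO2 with -0.70 ± 0.11 (adjusted p 0.000988), PGK1 with -0.33 ± 0.08 (adjusted p 0.0238) and ALDOA with -0.32 ± 0.08 (adjusted p 0.0261). The ALDOA call was lost without any of the 6 arrays (adjusted p 0.0531 to 0.1), and the PGK1 call without any of 4, senescent or old replicates 2 and 3 (adjusted p 0.0686 to 0.0986). Fitted to these 6 arrays alone, 6 of the 8 genes were called without a block, and ALDOA (adjusted p 0.0778) and PGK1 (adjusted p 0.0897) were not. With the replicate number as a block in the same 6 arrays 9 genes were called, which took in ALDOA, HK1 (-0.45, adjusted p 0.028) and PFKM (-0.31, adjusted p 0.049) and left out PGK1 (adjusted p 0.0544).

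Senescent cells at 20% and young cells at 3% oxygen, both high against young cells at 20%, differed from each other in 6 genes. Higher in senescent cells were ALDOC, ENO2 and PFKFB2 (0.35 ± 0.10, adjusted p 0.0464), and lower were SLC16A7, PKM (-0.57 ± 0.09, adjusted p 0.00135) and PFKFB3 (-0.45 ± 0.09, adjusted p 0.00486), where 5.2% of all genes were higher and 5.7% were lower. The median over the 31 genes was 0.05, the same as over all genes. The PFKFB2 call was lost without any of 5 arrays, each senescent replicate and young 3% replicates 1 and 3 (adjusted p 0.078 to 0.176). PFKFB3 had low values in both groups kept in 20% oxygen, and ALDOC and ENO2 had their highest values in senescent cells. PKM was low in both only as the mean of 2 probe sets that disagreed. Its 201251_at had -0.61, -0.57 and -0.71 in young 20% cells and -0.05, -0.07 and -0.05 in senescent cells. Its 213700_s_at had 0.09, -0.09 and -0.02 in young 20% cells and -0.53, -0.65 and -0.70 in senescent cells. In senescent against young 3% cells they ran from -0.90 to -0.23, with 1 of 2 called.

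Isoforms within families were compared by their ratios. For 12 pairs the difference of log2 values between isoforms was taken on each array and compared between groups with a two-sided exact permutation test. With 3 arrays against 3 the smallest p is 0.1, and adjusted over the 60 tests of 12 pairs in 5 comparisons the smallest is 0.222, so that no pair can pass the threshold and only sizes and overlap are given. The groups did not overlap for 7 pairs in senescent against young cells at 20% oxygen and for 8 in young cells at 3% against 20% oxygen, where 29.3% and 29.7% of all single genes did not overlap. No such share was counted for ratios of genes, so the counts and the shares are unlike measures. PFKM, PFKFB3 and PDK2 also recur among the pairs. ENO2 over ENO1 was higher by 2.00 ± 0.09 in senescent cells and by 1.39 ± 0.39 in young cells at 3% against young cells at 20% oxygen. PFKFB4 over PFKFB3 was higher by 1.24 ± 0.10 and by 0.49 ± 0.08 in the same comparisons, with senescent and young 3% cells apart from each other as well, by 0.75 ± 0.12. PDK1 over PDK2 was higher by 1.03 ± 0.13 and 1.24 ± 0.30, and LDHA over LDHB by 0.76 ± 0.07 and 0.58 ± 0.11. On young 3% replicates 1, 2 and 3 the log2 ratio of PDK1 over PDK2 was 0.88, -0.06 and 0.11. The probe sets of ENO1, PFKFB4 and PDK1 disagreed in size, as given above, which limits their ratios too. HK2 over HK1 was lower, with -0.96 ± 0.22 and -1.0 ± 0.20, with the limit of the HK2 probe sets given above. SLC2A3 over SLC2A1 was lower, with -0.56 ± 0.13 and -0.73 ± 0.11, since SLC2A1 moved more.

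Some pairs were apart in 1 of these comparisons and overlapped in the other. ALDOC over ALDOA was higher by 0.41 ± 0.11 in senescent cells without overlap, and in young cells at 3% its -0.10 ± 0.10 overlapped with young cells at 20% oxygen. PFKFB2 over PFKFB3 was 0.05 ± 0.11 in senescent cells, with overlap, and -0.75 ± 0.13 in young cells at 3%, without. Old cells at 3% lay below senescent cells, with -0.80 ± 0.08 in that ratio. PFKP over PFKM was higher by 0.33 ± 0.19 in young cells at 3%, without overlap, and PFKL over PFKM, PDK3 over PDK2 and PDK4 over PDK2 overlapped in both comparisons. Between old and young cells at 3% oxygen 2 of 12 pairs did not overlap, HK2 over HK1 (0.37 ± 0.12) and SLC2A3 over SLC2A1 (0.26 ± 0.11). Of all single genes 15.6% did not overlap there, again a share of genes and not of ratios. A ratio of this kind shows unequal change and does not say which isoform is more abundant.

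**Figure D5:**
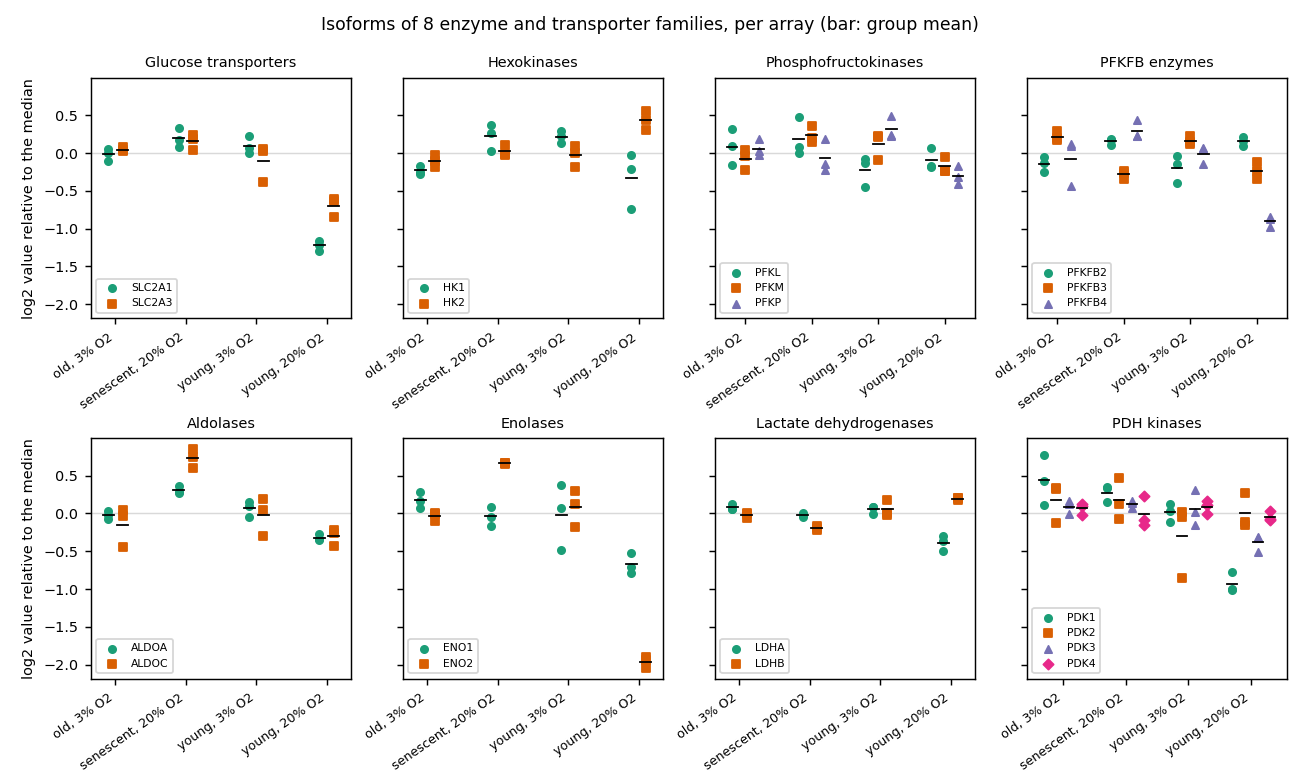
Value of each isoform of 8 enzyme and transporter families on each array (points) with the group mean (bar), by group, as log2 relative to the median over 12 arrays. In young cells at 20% oxygen ENO2 lies between -2.04 and -1.90 and ENO1 between -0.79 and -0.52, while LDHA and LDHB part in opposite directions.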

How the data were processed

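RNA of 12 Imr90 samples, 3 in each of 4 groups, was measured on Affymetrix arrays. RMA produced the values the authors deposited, per the submitters' processing notes, and its version is not given in the sources used here. The deposited values are taken as log2, the scale RMA gives, although no label states the base. Each of the 54675 probe sets has a median of 0 over the 12 arrays (largest absolute median 5e-07), so no level or signal over background can be read, and the number of arrays limits the precision.

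Probe sets that name 1 gene (41091, of which 41037 matched a current symbol by Entrez identifier) were averaged per gene, giving 19775 genes, and 1801 that name several genes were left out. A mean per group was fitted in limma 3.58.1 (lmFit and eBayes, under R 4.3.3) to all arrays together. Tests were two-sided, the Benjamini-Hochberg adjustment ran over the 19775 genes of each comparison, and a gene was called where its adjusted p was under 0.05. Isoform ratios were compared with exact permutation tests. The fit was tested on simulated data.

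The members, lists and tests were chosen with earlier results of these data known. Every measured member may be named. Values on every array are given for up to 4 called members a stage with the largest changes, and for their isoforms. Further genes of the pathway are limited to 4 a list with the largest change in senescent against young cells at 20% oxygen. Alternatives were another empirical Bayes fit, the most variable probe set, renormalization, array weights, a replicate block, a filter on flat genes, the compared groups alone, stricter calls, an RNA integrity covariate and leaving out each array.

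Replicate numbers were checked for pairing by correlating the deviations of same-numbered arrays from their group means. All 3 correlations passed 0.1 for senescent and old cells alone (0.13, 0.49 and 0.64), so the blocked fit of that comparison is given beside its results.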

Additional observations from a re-analysis of the deposited data

Results flagged for a closer look

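For 16 of the 31 genes the change with passage at 20% oxygen (senescent minus young) differed from the change with passage at 3% oxygen (old minus young) when limma tested the difference itself. Of all genes, 2.06% were higher and 4.37% were lower in that test. The 20% side ends in senescent cells at population doubling 48 and the 3% side in nonsenescent cells at 53, so the sides differ in more than oxygen. The difference was 2.75 for ENO2, 1.53 for SLC2A1, 1.48 for PGK1, 1.26 for PFKFB4 and 1.16 for ALDOC. It was 0.99 for HK1, 0.84 for GPI, 0.83 for TPI1, 0.76 for PGM1, 0.71 for ALDOA, 0.70 for PGAM1 and 0.53 for GAPDH. For PDK1 it was 0.79, for SLC2A3 0.70, for PFKM 0.60 and for DLAT -0.63, the one negative value. The probe sets of PDK1 ran from -0.44 to 1.87, with 1 of 3 called, and those of PFKFB4 from 0.01 to 2.52, with 1 of 2 called. At 3% oxygen none of the 31 genes was called. Leaving out single arrays of the 12 in turn ended the call for PFKM in 11 cases, for PDK1 in 10, for DLAT in 9, for SLC2A3 in 8 and for HK1 in 1 case, that without senescent replicate 3 (0.92, adjusted p 0.0504). In those cases the adjusted p by limma ran up to 0.126 for PFKM, 0.11 for PDK1, 0.0871 for DLAT and 0.0781 for SLC2A3, and the other 11 genes were called in each case.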

How the results depend on the processing

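No change of a called gene reversed its sign under any alternative. Many called genes stayed called in every alternative fit that held them and with each array left out. They were 14 of 21 in senescent against young cells at 20% oxygen and 14 of 21 in young cells at 3% against 20%. In old against senescent cells they were 5 of 8, in senescent against young 3% cells 4 of 6. For the difference of the passage changes they were 11 of 16. With an absolute log2 change of at least 1 as a further condition, the counts of called genes were 6, 3, 0, 0 and 5. At an adjusted p under 0.01 they were 5 for old against senescent cells and 10 for the difference of the passage changes. In old against young cells at 3% oxygen, array quality weights called 1 gene, DLAT (0.43, adjusted p 0.0363), and leaving out old replicate 3 called 1, PDK1 (0.58, adjusted p 0.0467). With 1 array left out in turn the counts were 16 to 18, 17 to 20, 0 to 1 (old against young at 3%), 5 to 7, 5 to 6 and 12 to 15. The lowest count for old against senescent cells, 5, came without senescent replicate 3. Array quality weights called 6203 of all genes in senescent against young cells at 20% oxygen, against 2474 without weights. The isoform pairs without overlap in old against young cells at 3% oxygen were 2, with a range of 2 to 4 when 1 array was left out, and 0 with the most variable probe set of each gene. With the replicate number as a block in all 12 arrays, 20 genes were called in each of the comparisons with young cells at 20% oxygen, 0, 8 and 6 in the others and 14 for the difference of the passage changes. The block ended the call of HK1 in both comparisons with young cells at 20% oxygen (adjusted p 0.0554 and 0.0606) and of PDK1 and PFKM for the difference of the passage changes (0.0676 and 0.0612). Fitted to the 6 arrays of old and senescent cells alone, 9 genes were called with the block and 6 without it. The filter on flat genes kept 25 of the 31 genes. It left out GAPDH and LDHB, which are counted above as called in every alternative fit that held them. Pairs of isoforms with SLC16A1 or SLC16A3 were not run. As no signal over background can be read, genes near the detection limit cannot be told from the rest.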

Other observations

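Other genes of carbohydrate metabolism come from lists that were chosen with earlier results of these data known. Those named, BPGM aside, are up to 4 a list with the largest change in senescent against young cells at 20% oxygen. Counts are given beside the share of all genes called. That share was 4.67% higher and 7.84% lower in senescent against young cells at 20% oxygen, 4.96% and 6.84% in young cells at 3% against 20%, and 0.981% and 0.759% in old against young cells at 3%. Of 11 measured glycogen genes, 5 were higher and 0 lower in senescent against young cells at 20% oxygen. The largest changes were in GYS1, the muscle glycogen synthase (1.48 ± 0.27, adjusted p 0.00302 by limma), PPP1R3C, a subunit that targets a phosphatase to glycogen (0.94 ± 0.10), GBE1, the branching enzyme (0.93 ± 0.09), and PGM2L1 (0.61 ± 0.11). Young cells at 3% against 20% oxygen had 4 glycogen genes higher and 0 lower, with GBE1 at 0.46 ± 0.09 and PGM2L1 at 0.39 ± 0.11 among them. Both comparisons use the same arrays of young cells at 20% oxygen. Of 7 measured genes of the pentose phosphate pathway, 0 were higher and 1 was lower in each of these comparisons, RPIA in the first (-0.56 ± 0.14).

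A list of other paralogs and partners of the same steps had 26 measured genes. Of these, 3 were higher and 0 lower in senescent against young cells at 20% oxygen, SLC2A10 (0.56 ± 0.10), SLC16A4 (0.52 ± 0.11) and SLC2A13 (0.42 ± 0.12). In young cells at 3% against 20% oxygen 0 were higher and 3 lower. In old against young cells at 3% oxygen 1 of the 26 was called, a gene chosen after its values were seen: BPGM, which makes the bisphosphoglycerate of red blood cells, was higher by 0.51 ± 0.11 (adjusted p 0.0419). Its change in young cells at 3% against 20% oxygen was -1.21 ± 0.11 (adjusted p 1.25e-05). Of 8 measured genes of pyruvate carriers and of other pyruvate enzymes, 1 was higher and 1 lower in senescent cells, MPC2, a subunit of the mitochondrial pyruvate carrier (0.54 ± 0.10), and DLD, a subunit of the pyruvate dehydrogenase complex (-0.38 ± 0.10). MPC2 had the other sign in young cells at 3% against 20% oxygen, -0.47 ± 0.10 (adjusted p 0.00697).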
